A study of Drosophila melanogaster with 2 samples.

Results

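The proximal-distal axis of the fly leg is laid down by a small set of transcription factors, and 10 of their genes are described here: Dll, al, B-H1, Lim1 and ap as distal genes, dac as the intermediate gene, and hth, exd, tsh and tio as proximal genes. They were taken by symbol from 13945 protein-coding genes in the annotation. The rule uses no measured value, but the set was chosen with earlier results of these data known. The data are ChIP-seq (chromatin immunoprecipitation with sequencing) for the zinc-finger protein disco-r in whole Drosophila melanogaster embryos of mixed sex, collected over 0 to 24 h. The embryos came from a line that carries disco-r fused to eGFP, and a GFP antibody was used on 2 biological replicates, numbered 2 and 3. A further label names disco, the paralog next to disco-r, as the gene fused to GFP. Every embryo carried the transgene, there was 1 group, and no untagged or input library was analysed here, so there is no contrast between conditions.

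In the leg primordium, Wingless and Decapentaplegic signals turn on Dll in the cells that will form the distal leg and dac in a ring around them. Outside that domain hth stays on, and its homeodomain protein carries the cofactor encoded by exd into the nucleus. Near the tip al and Lim1 act in the pretarsus and B-H1 and ap in the tarsus; ap is also the selector of dorsal identity in the wing. The paralogs tsh and tio encode zinc-finger proteins of the trunk and the proximal leg. The genes disco and disco-r are themselves known for a role in leg formation, where Dll activity and theirs depend on each other.

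Regions are given from 4 deposited lists on the dm6 assembly. They hold 29347 pooled candidates from both replicates, 30000 candidates from each replicate alone, and 2334 pooled regions that passed IDR. IDR (irreproducible discovery rate) is meant to keep regions that rank consistently high across replicates. In this list, passing went with the pooled signal. The strongest peak of each gene named here had the same rank in the IDR list as among all pooled candidates. At the leg genes every region of 73.3 or more passed and every one of 70.3 or less did not. Passing or failing therefore does not by itself tell how well the replicates matched at a region. The lowest IDR signal was 72.5, the median 105 and the highest pooled signal 1206, in the authors' own units. The candidate lists hold peaks and background together, so a candidate is not by itself a disco-r site, and counts and shares of candidates include background. A region was counted at a gene where its summit lay in the gene body or within 2 kb of it. Signals are compared within 1 list only, the number of reads behind them is unknown, and neither genes nor regions are replicates, so no test is given. In whole embryos a weak region in all cells and a strong one in few cells cannot be told apart.

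Peaks of disco-r at the leg genes were about as frequent as over the genome, and none reached the median IDR signal. An IDR peak was present at 4 of the 10 genes, namely Lim1, dac, hth and tio, against 27.4% of the 11296 protein-coding genes that had a pooled candidate. The 4 genes held 5 peaks, with signals of 100.4 (dac), 79.7 and 73.3 (hth), 79.4 (tio) and 76.4 (Lim1), all 5 below the median of the IDR list. No IDR peak lay at Dll, al, B-H1, ap, exd or tsh. In all, the 10 genes held 107 pooled candidates, of which 4.67% passed IDR (95% Wilson interval 2.01 to 10.5, counting error only). Over all pooled candidates the share was 7.95%, which lies inside that interval. The median signal of the 107 was 30.1, against 28.8 for the other 29240 candidates.

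**Figure D1:**
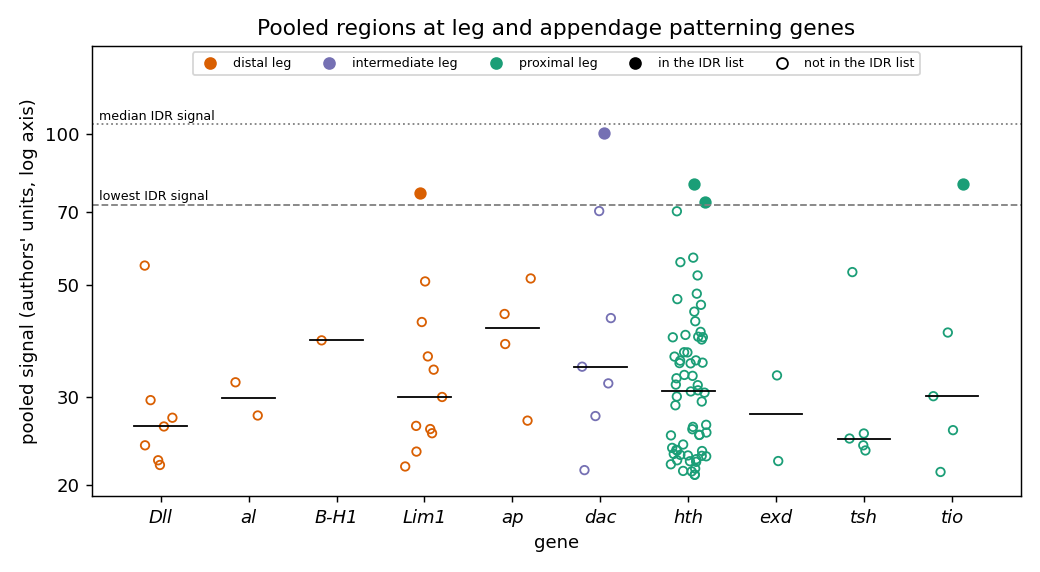
Signal of every pooled region (points, log axis, authors' units) at each of the 10 genes, distal to proximal from left to right; filled points passed IDR, short bars are medians per gene, and the dashed and dotted lines mark the lowest and median IDR signal. The 5 filled points lie between 73.3 and 100.4, below the dotted line at 105, and hth has by far the most points (63).

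Longer genes have more room for summits. Among the leg genes of 40 kb or more, both Lim1 and hth had an IDR peak, against 49.3% of 454 genes of that length. Among those of 10 to under 40 kb, 1 of 3 did (dac, but not Dll or ap), against 39.1% of 1475 genes. Among those under 10 kb, 1 of 5 did (tio, but not al, B-H1, exd or tsh), against 24.5% of 9367 genes. Per length of gene plus flanks, the 10 genes had 15.8 IDR peaks per Mb. The 6 chromosome arms, which also hold sequence far from genes, had 17.4 per Mb.

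The intermediate gene dac, which encodes a nuclear cofactor, carried the strongest region of the set. The gene lies on 2L from 16466512 to 16485998, minus strand, and its peak (16486383 to 16486782) had its summit 585 bp upstream of the start site, in intergenic sequence. The pooled signal of 100.4 ranked 1260 in the whole list. It was 57.7 in replicate 2 (rank 1082) and 42.1 in replicate 3 (rank 1743), so that both replicates placed it among their strongest 2334. No other region of the 10 genes did so in both. A second dac region, 9689 bp downstream of the start site in an intron (16476109 to 16476508), had a pooled signal of 70.3 and rank 2495, just outside the IDR list. Its signal was 38.8 in replicate 2 and 34.6 in replicate 3, with ranks 2511 and 2482, both just beyond the strongest 2334. The other 5 dac candidates had signals of 21.4 to 43.0.

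The proximal gene hth, a homeobox gene of the TALE class, had 63 pooled candidates, the second-highest number of any protein-coding gene. It lies on 3R from 10507561 to 10639568, minus strand, and 57 of the 63 summits were in its introns. Candidates stood at 4.63 per 10 kb of the hth locus, against 2.19 per 10 kb of the chromosome arms, which also hold sequence far from genes. This density was not particular to hth. The other proximal genes had 4.75 (tio), 4.03 (tsh) and 2.49 (exd), and the 23 other appendage genes listed further on had 3.34 together. Some neighbouring hth candidates overlap and were counted separately. Only 2 of the 63 passed IDR (3.17%, 95% Wilson interval 0.875 to 10.9), against the 7.95% of all candidates given above. The stronger (10560589 to 10560988, signal 79.7, rank 1952) lay 78.8 kb into the gene from the first start site, and the weaker (10520538 to 10520937, signal 73.3, rank 2280) 118.8 kb in. The stronger had signals of 44.5 in replicate 2 and 34.1 in replicate 3, and the weaker 37.4 in replicate 2 and 36.3 in replicate 3. Just below the threshold, an intron region 75.1 kb in (10564253 to 10564652) had a pooled signal of 70.3 and rank 2499. That region ranked 16451 in replicate 2 (signal 16.2) and 1567 in replicate 3 (signal 44.9), far apart in the lists. At the internal hth start site, a region with a pooled signal of 33.0 ranked 2229 in replicate 2 (signal 41.2) and had no candidate in replicate 3.

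Lim1, a LIM-homeobox gene of the pretarsus, was the only distal gene with an IDR peak. It lies on X from 8756539 to 8805804, minus strand, and the peak (8774059 to 8774458, signal 76.4, rank 2117) lay in an intron 11094 bp downstream of the nearest Lim1 start site. Replicate 2 gave it 36.4 (rank 2920) and replicate 3 39.4 (rank 1972), so it was among the strongest 2334 in replicate 3 and not in replicate 2. Of the other 10 candidates the strongest, at the promoter 119 bp upstream of the first start site, had 50.9.

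The proximal gene tio lies on 2L from 22019208 to 22025734, plus strand. Its peak (22024430 to 22024829, signal 79.4, rank 1965) had the summit in the 3′ UTR, a location shared by 18 of the 2334 IDR peaks. It ranked 1567 in replicate 2 (signal 48.3) and 3511 in replicate 3 (signal 28.7). A promoter region of tio with a pooled signal of 40.3 likewise ranked 2997 in replicate 2 (signal 36.0) and had no match in replicate 3.

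The reference sequence within 100 bp of each of the following summits, read from the plus strand of Release 6 (dm6), is shown because these regions stand on either side of the IDR threshold, or differ between the replicates (tsh). The tio peak is left out because its window lies in a UTR. Capitals mark matches on either strand to any of 7 motifs searched, which are spelled out further on.
dac upstream, passed, chr2L:16486483-16486683: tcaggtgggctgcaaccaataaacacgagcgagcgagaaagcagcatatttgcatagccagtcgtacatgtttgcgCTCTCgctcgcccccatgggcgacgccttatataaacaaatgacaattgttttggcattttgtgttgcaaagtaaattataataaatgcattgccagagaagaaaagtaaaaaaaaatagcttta
hth intron, passed, chr3R:10560689-10560889: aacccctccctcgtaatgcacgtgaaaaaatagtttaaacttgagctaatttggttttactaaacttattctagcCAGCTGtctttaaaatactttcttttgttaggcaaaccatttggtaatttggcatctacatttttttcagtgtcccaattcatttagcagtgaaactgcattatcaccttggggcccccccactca
Lim1 intron, passed, chrX:8774159-8774359: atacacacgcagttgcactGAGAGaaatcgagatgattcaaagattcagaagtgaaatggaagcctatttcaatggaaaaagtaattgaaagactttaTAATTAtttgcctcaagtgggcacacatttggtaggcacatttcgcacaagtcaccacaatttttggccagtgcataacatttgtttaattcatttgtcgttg
hth far intron, passed, chr3R:10520638-10520838: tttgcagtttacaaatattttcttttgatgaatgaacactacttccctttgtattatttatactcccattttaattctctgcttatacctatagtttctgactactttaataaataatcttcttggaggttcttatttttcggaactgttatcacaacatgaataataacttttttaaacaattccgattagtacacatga
dac intron, just below the threshold, chr2L:16476209-16476409: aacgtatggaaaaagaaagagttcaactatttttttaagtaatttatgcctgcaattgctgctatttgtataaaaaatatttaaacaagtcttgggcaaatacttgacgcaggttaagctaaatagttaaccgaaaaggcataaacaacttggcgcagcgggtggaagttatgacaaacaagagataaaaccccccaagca
hth intron, just below the threshold, chr3R:10564353-10564553: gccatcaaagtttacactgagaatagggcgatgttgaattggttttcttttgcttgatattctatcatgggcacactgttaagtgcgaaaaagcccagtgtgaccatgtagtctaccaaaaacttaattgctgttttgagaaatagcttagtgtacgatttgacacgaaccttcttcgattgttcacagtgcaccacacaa
tsh promoter, did not pass, chr2L:21828175-21828375: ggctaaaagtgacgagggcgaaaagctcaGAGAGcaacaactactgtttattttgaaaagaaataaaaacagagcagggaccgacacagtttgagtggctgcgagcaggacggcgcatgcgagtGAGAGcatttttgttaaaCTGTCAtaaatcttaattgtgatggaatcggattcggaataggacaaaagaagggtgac

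The GC content of these windows was 40.8% (dac upstream), 37.8% (hth intron), 36.8% (Lim1), 27.4% (hth far intron), 35.3% (dac intron), 39.8% (hth below the threshold) and 43.8% (tsh). The tio window, not printed, had 54.2%. Over all 107 candidates of the 10 genes the median was 45.3%, against 43.3% for the other candidates.

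**Figure D2:**
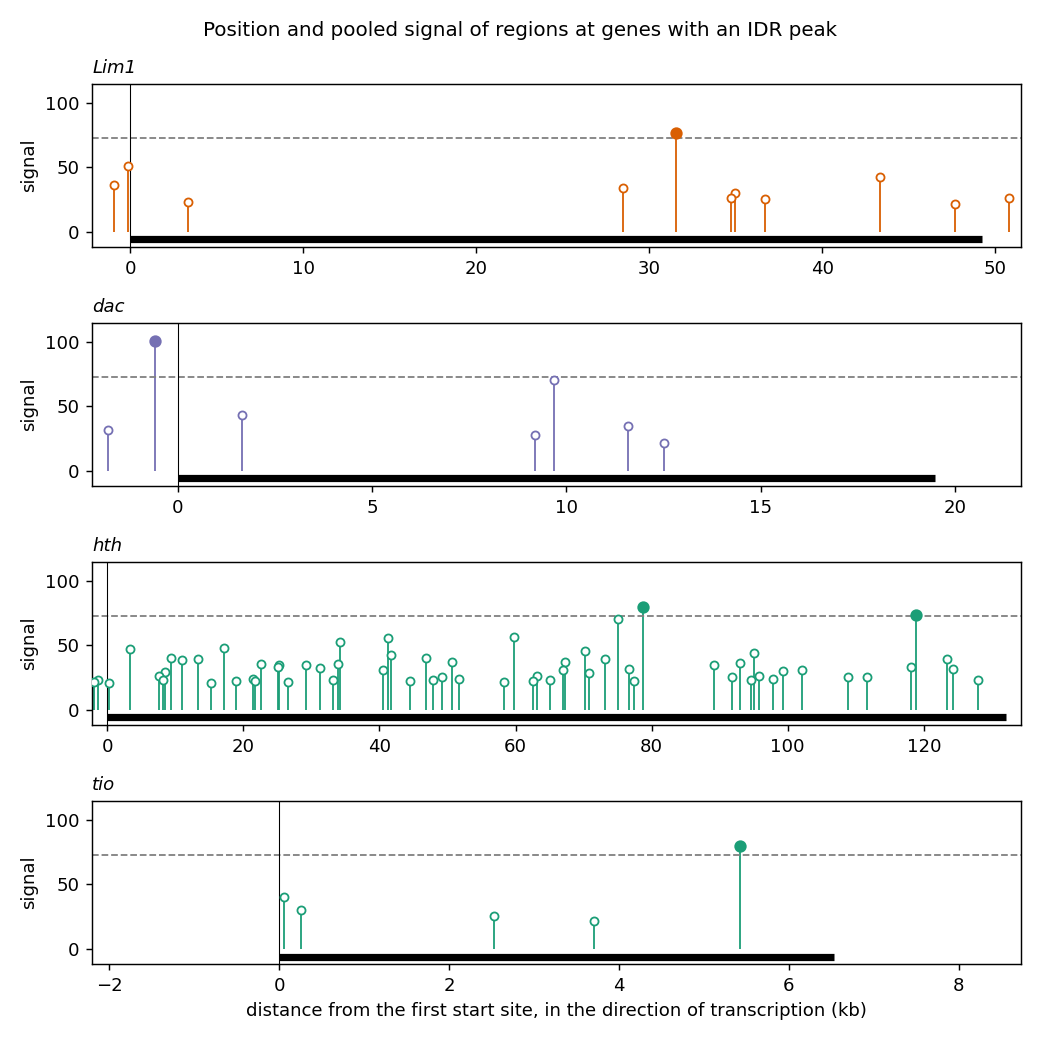
Position (x axis, kb from the first start site in the direction of transcription) and pooled signal (y axis, authors' units) of each region at the 4 genes with an IDR peak; the black bar is the gene, filled points passed IDR and the dashed line is the lowest IDR signal. The peaks lie 585 bp upstream of dac, 78.8 and 118.8 kb into hth, 5.42 kb into tio and 31.55 kb into Lim1, while the regions at or next to the start sites stay under the dashed line for Lim1, hth and tio.

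Between the 5 distal and the 4 proximal genes the order of the candidate numbers turned on hth, and the share that passed was equal. There were 25 candidates at distal genes and 75 at proximal genes, with 1 and 3 IDR peaks, so 4% of candidates passed at distal genes (95% Wilson interval 0.710 to 19.5) and 4% at proximal genes (1.37 to 11.1). The median signal was 29.5 at distal and 30.1 at proximal genes. Of the 75, hth held 63, and without it the other 3 proximal genes had 12 candidates and 1 IDR peak, fewer candidates than the distal genes. Per length, distal genes had 1.98 candidates per 10 kb, against 4.49 for proximal genes and 3.87 for proximal genes without hth. The strongest region per gene ran from 32.1 (al) to 76.4 (Lim1) at distal genes and from 33.1 (exd) to 79.7 (hth) at proximal genes, so the ranges overlapped almost fully. The dac value of 100.4 lay above both. Ranked among all protein-coding genes with a candidate by their strongest region, dac stood at the 83.4th percentile, hth at the 76.3rd, tio at the 76.1st, Lim1 at the 74.5th, Dll at the 61.3rd, tsh at the 59.8th, ap at the 58.4th, B-H1 at the 42.9th, exd at the 32.3rd and al at the 29.9th.

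Dll, the homeobox gene that specifies the distal leg, had its strongest region at the promoter and no IDR peak. The gene lies on 2R from 24814822 to 24835667, plus strand. The promoter region (24814547 to 24814946), with its summit 75 bp upstream of the start site, had a pooled signal of 54.8 and rank 3928. Its signal was 32.2 in replicate 2 (rank 3785) and 19.1 in replicate 3 (rank 9168). The other 6 Dll candidates had pooled signals of 21.9 to 29.5, 5 of them in introns up to 12499 bp downstream of the start site. In replicate 3 the strongest Dll region was an intron one (signal 21.95, rank 6349).

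The strongest regions of ap, B-H1 and al ranked below that of Dll. At ap, a LIM-homeobox gene on 2R from 5706202 to 5727525, minus strand, the strongest of 4 candidates was at a promoter (signal 51.6, rank 4404), with 25.3 in replicate 2 and 20.7 in replicate 3. B-H1, a BarH homeobox gene on X from 17397478 to 17403278, plus strand, had 1 pooled candidate, 85 bp upstream of its start site (signal 38.9, rank 7693). That region had 21.7 in replicate 2 (rank 8746), and B-H1 had no candidate in replicate 3. At al, a paired-class homeobox gene on 2L from 378112 to 387439, plus strand, there were 2 pooled candidates, in a coding exon (32.1) and an intron (27.5).

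Among the proximal genes without an IDR peak, tsh was the stronger. It lies on 2L from 21828593 to 21837011, plus strand, and its region 318 bp upstream of the start site (21828075 to 21828474) had a pooled signal of 53.1 and rank 4158. The replicates differed widely there, with 38.5 in replicate 2 (rank 2544) and 12.4 in replicate 3 (rank 26436). The other 4 tsh candidates had pooled signals of 23.4 to 25.3. The homeobox gene exd, on X from 15992468 to 15996509, plus strand, had 2 candidates, at its promoter (33.1, rank 10795) and in a coding exon (22.3, rank 25296), and neither was found in both replicates.

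Most of the genes had a region at the own promoter, and none of these passed. That is below the share of all genes, but it rests on 8 genes and was not tested. A pooled candidate lay within 500 bp of an own start site at 8 of the 10 genes (all but al and dac), and 0 of the 8 passed IDR there. Over all 7024 genes with one there, 22.8% passed. The strongest own-promoter signals at the 8 genes were 54.8 (Dll), 53.1 (tsh), 51.6 (ap), 50.9 (Lim1), 40.3 (tio), 38.9 (B-H1), 35.0 (hth) and 33.1 (exd). Their median was 45.6, against 41.7 over the 7024 genes. Of the 5 IDR peaks of the leg genes, 0 had a summit within 500 bp of a protein-coding start site, against 52.1% of all IDR peaks. The dac peak, at 585 bp, lies just outside that width, and with 1000 bp the count is 1 of 5, so the difference depends on the width and on few peaks.

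By location, candidates of the leg genes were mostly intronic. Of the 107, 72.0% lay in introns (95% Wilson interval 62.8 to 79.6), against 37.1% (36.5 to 37.6) of the other candidates, and 13.1% lay at promoters (7.96 to 20.8), against 27.2% (26.7 to 27.7). The 107 were taken only in genes or within 2 kb of them, while 17.7% of the other candidates were intergenic. The choice of regions thus raises the intron share in part. The intron share rested on hth, at 90.5% of its 63. Without hth, 45.5% of 44 candidates were in introns (31.7 to 59.9) and 25% at promoters (14.6 to 39.4), intervals that include the values of the other candidates.

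**Figure D3:**
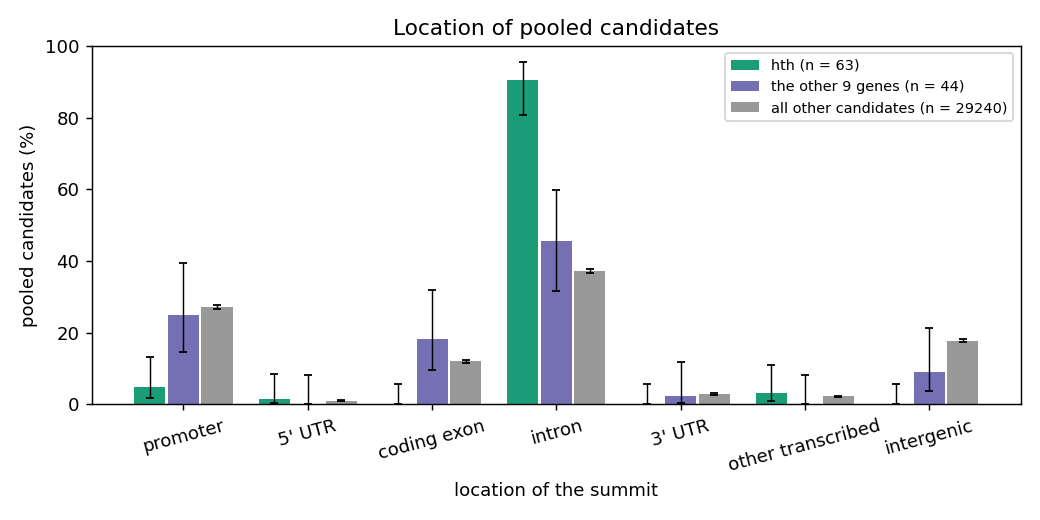
Share of pooled candidates (y axis, percent) by location of the summit (x axis) for hth, for the other 9 genes, and for all candidates at no gene of the set; error bars are 95% Wilson intervals. The hth bar reaches 90.5% in introns, while the bars of the other 9 genes (45.5%) and of all other candidates (37.1%) have overlapping intervals there.

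Many of these regions were found in 1 replicate alone, and some of those in both differed widely in rank. Of the 107 candidates, 44 (41.1%) were matched by a candidate in both replicates at 50% overlap, 30 in replicate 2 alone, 23 in replicate 3 alone and 10 in neither. Among the other 29240 candidates 41.7% were matched in both. Over the 44, Spearman's rho between the ranks in replicate 2 and in replicate 3 was 0.245, against 0.592 over 12201 other candidates. The regions share library and control, neighbouring ones can match the same replicate region, and the leg genes lack strong regions, so rho is a description only. Distal genes alone gave rho 0.703 over 13 regions, and hth alone -0.02 over 23. The genes with a region among a replicate's strongest 2334 were dac, hth and tio in replicate 2 (3 of 10, against 26.4% of genes with a candidate there) and Lim1, dac and hth in replicate 3 (3 of 10, against 26.6%). The 2 hth regions in replicate 2 and the 2 in replicate 3 were 4 different sites.

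**Figure D4:**
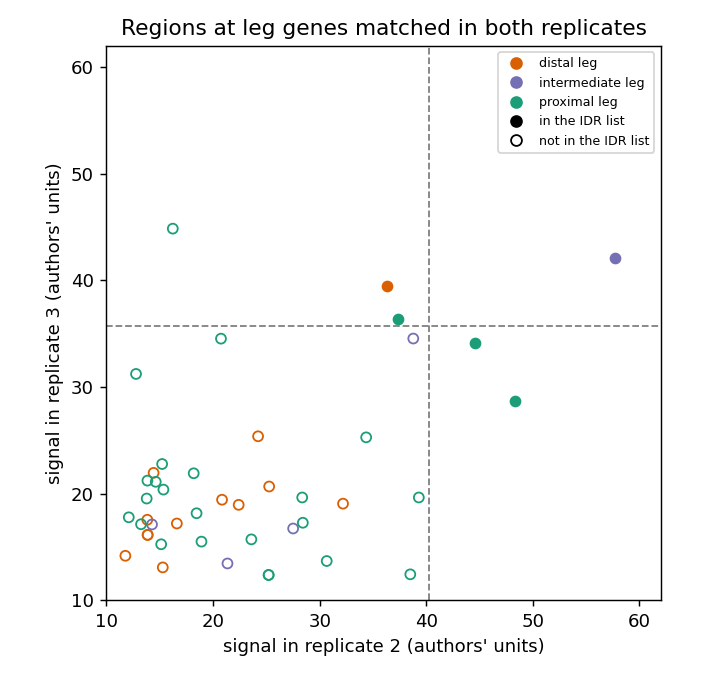
Signal in replicate 2 (x axis) and replicate 3 (y axis), in the authors' units of each list, for the 44 regions at the 10 genes matched in both; filled points passed IDR and dashed lines mark the 2334th strongest signal of each replicate (40.2 and 35.7). The dac upstream peak is the 1 point beyond both lines, and several proximal regions, those of hth and tsh, lie high in 1 replicate and low in the other.

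Motifs were searched within 100 bp of each summit on both strands. They were the homeodomain core TAATTA, the composite site of Exd with Hox proteins written TGATTNAT, the core bound by Hth written TGACAG, the Zelda site with CAGGTAG, the GAGA factor word with GAGAG, the E-box with CAGCTG, and the DREF site with TATCGATA. No word lies within another, though some can share letters at their ends, and matches in a repeat may overlap. The GAGA word was in 44 of the 107 candidates (41.1%), against 24.8% of all 29347 pooled candidates. It was present in 25 of 63 hth candidates and in 43.2% of the other 44, and in 3 of the 5 IDR peaks (dac, tio and Lim1), against 25.3% of all IDR peaks. The tio window held 4 matches. The median GC content of the 107 windows and of the others is given above, and its part in these shares was not tested. The Exd-Hox composite was in 14 of the 107 (13.1%), against 5.03% of all, at hth (8), tsh (3), al, dac and tio (1 each), and in 0 of the 5 IDR peaks. The strongest region with it was an hth intron one (10622225 to 10622624, pooled signal 48.1, rank 5030), which ranked 4164 in replicate 2 and 21511 in replicate 3. It is shown from 100 bp before to 100 bp after the summit, with the composite on the minus strand and a GAGA word in capitals.
hth intron with the composite, chr3R:10622325-10622525: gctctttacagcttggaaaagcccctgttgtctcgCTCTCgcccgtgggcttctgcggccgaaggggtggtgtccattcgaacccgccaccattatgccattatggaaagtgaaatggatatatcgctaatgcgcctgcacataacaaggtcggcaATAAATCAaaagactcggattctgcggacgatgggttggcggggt

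The other motifs did not stand far from the shares of all candidates. The homeodomain core was in 11.2% of the 107 against 10.96%, the Hth core in 9.35% against 7.88%, the E-box in 8.41% against 10.6%, and Zelda in 0.935% against 1.17%. The DREF site was in 0 of the 107 against 1.79%. Among the printed peaks the homeodomain core stands 1 time in the Lim1 window and the E-box 1 time in the stronger hth window, and the far hth intron holds none of the 7. A match is a run of letters and not a bound site.

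Widening the flanks to 10 kb brought in 4 more IDR peaks and 1 more gene. With 10 kb, 5 of 10 genes had a peak, against 46% of the 13508 genes that had a candidate so near. Upstream of dac lay peaks at 5453 bp (16491251 to 16491650, signal 103) and 9387 bp (16495185 to 16495584, signal 119), the first 89 bp from a start site of the neighbouring gene Tpr2 and the second inside Tpr2. Upstream of hth a peak stood 3893 bp from the first start site (10643261 to 10643660, signal 85.3), inside the antisense RNA gene CR44018. The tsh peak (21846412 to 21846811, signal 84.1) lay in intergenic sequence 9601 bp beyond the end of the gene, with 39.8 in replicate 2 (rank 2391) and 46.6 in replicate 3 (rank 1438). No IDR peak lay within 10 kb of Dll, al, B-H1, ap or exd.

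Other genes of leg and appendage development were counted in the same way. Of 23 listed by role, 7 had an IDR peak within 2 kb, beside the 4 of 10 above and the 27.4% of all genes with a candidate. Among the inducers of the axis they were the ligand genes dpp (signal 130.3) and vn (140.5) and the receptor gene Egfr (81.6), but not wg, btd, Sp1 or rho. Among distal and intermediate factors they were the zinc-finger genes noc (75.1) and elB (76.0), 2 of 10, and B-H2, the paralog of B-H1, had none (strongest 42.7). The joint factor gene bowl (201) and TfAP-2 (86.1) were the others. The tagged gene disco-r had 4 peaks (strongest 139) and disco 1 (134.5), and both of these signals exceed that of every region at the 10 leg genes.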

How the data were processed

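Values were used as the authors deposited them. Per the notes deposited with the files, candidate lists (peaks and background together) were made per replicate and for the replicates pooled, always against 1 control file, and the IDR list was derived from all 3. The signal per region is the authors' deposited value with no stated scale. The −log10 q value per region was also deposited by the authors, and no result rests on it. At the IDR regions of the leg genes it was 3.68. At their other candidates it ran from 0.021 to 3, both at hth. The candidate of median signal (30.1, at tio) had 0.263, so most candidates counted here had little support of their own. For aligner, peak caller, IDR threshold and read numbers, the entry is: not given in the sources used here; per the labels, chromatin was sonicated to 200 to 800 bp.

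Summits were read from the region start plus the deposited offset. Genes came from Ensembl release 115 (BDGP6.54) and sequence from NCBI Release 6, both in dm6 coordinates. A summit up to 500 bp from the start of any protein-coding transcript was called promoter; failing that, UTR, coding exon, intron, other transcript and intergenic were tried in turn. Replicate matches needed 50% overlap. Scripts ran in Python 3.11.15 with pandas 2.3.3, and the assignment of summits to genes was tested on simulated data. The dm3 lists were not used here. All 10 genes are named, and of the 23 other genes those with a peak; the genes, lists and motifs were chosen with earlier results of these data known, and the printed near-threshold and composite windows after their values were seen. Alternatives were other flanks, the nearest start site, a stricter list, single replicates, a looser overlap and other promoter widths. With 1 group there was no test.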

Additional observations from a re-analysis of the deposited data

How the results depend on the processing

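The count of 4 leg genes with an IDR peak was 3 in the gene body alone, 4 with flanks of 5 kb and 5 with flanks of 10 kb or by the nearest start site. With flanks of 10 kb the number of IDR peaks at the 10 genes was 9 in place of 5, and that at proximal genes 5 in place of 3, because the windows were wider. With the IDR peaks above their median signal, the counts of genes, of all peaks, of distal peaks and of proximal peaks, and the percent of candidates that passed, were each 0, since all 5 peaks lie below that median. Leaving out 1 replicate and taking the strongest 2334 of the other gave 3 genes and 4 peaks either way, 0 to 1 at distal genes (the Lim1 region is not among the strongest of replicate 2) and 2 to 3 at proximal genes. The 5 peaks were found in both replicates at 50% overlap and at 1 bp. With promoters of 1000 bp, 1 of the 5 (dac) counted as a promoter peak, in place of 0. No paired analysis was possible because there is 1 group. The unknown depth and the absence of a control library here limit what can be said of weak regions such as those of Dll and tsh.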

Other observations

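Some regions of replicate 2 had no match at 50% overlap in the pooled list or in replicate 3. At al, these were promoter candidates with signals of 18.8 and 14.9 (ranks 12017 and 19512), while replicate 3 had none at the al promoter and its strongest al region was in an intron (14.8, rank 17813). At tio, it was a region just upstream of the gene (22018783 to 22019192, signal 33.9, rank 3394). At exd, it was a region beyond the end of the gene (15996787 to 15997196, signal 15.2, rank 18668).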
